A study of Mus musculus with 12 samples.

Results

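The genes described here are the Wnt ligands, their receptors and their secreted inhibitors in mouse back skin. Members were taken by symbol: all Wnt, Fzd, Dkk, Sfrp and Rspo genes of the deposited table, with Lrp5, Lrp6, Ror1, Ror2, Ryk, Wif1, Notum and Axin2. This gave 49 of the 18505 genes in the table. They were 19 Wnt ligands, 4 R-spondins, 10 Frizzled receptors, 5 other receptors and co-receptors, 10 secreted inhibitors and Axin2, a feedback target of the pathway. RNA-seq was performed on 12 samples of back skin taken on day 10, 4 in each of 3 groups of wild-type BALB/c mice, which the study's methods give as males 5 to 6 weeks old. The control group received petroleum jelly, and the labels describe its handling only as white space. The IMQ + NS group received imiquimod (IMQ) cream, an agonist of Toll-like receptor 7 that brings on psoriasis-like skin inflammation, followed by saline. The IMQ + BZLF group received the same cream followed by Banzhilian formula (BZLF), a mixture of 9 medicinal materials, mostly of plants, applied to the lesion, at a dose that is not given for the sequenced samples. The methods state that back hair was shaved in all mice. They describe a cover of gauze and polyurethane film for both IMQ groups and none for the control group. Effects of the cream and of the cover therefore cannot be told apart in comparisons with control.

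Wnt proteins are lipid-modified ligands that bind a Frizzled receptor. With the co-receptors Lrp5 and Lrp6 they stabilise beta-catenin, which enters the nucleus with TCF/LEF factors, whereas with Ror1, Ror2 or Ryk they act on cell polarity and movement. R-spondins amplify the signal by keeping Frizzled proteins at the cell surface, and the Sfrp, Dkk, Wif1 and Notum proteins block ligands or receptors. In skin the pathway is known for starting and maintaining hair follicle growth and for its activity in the epidermis and the dermal papilla.

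Values are FPKM, fragments counted per kilobase of a transcript and scaled to sequencing depth, so that levels of different genes can be set side by side. The FPKM of a sample added up to between 444660 and 506622. A gene was tested where its mean over the 12 samples was at least 0.1 FPKM, which held for 15288 genes and for 44 of the 49 members. A differentially expressed gene (DEG) had to pass an adjusted p of 0.05 and to change by more than 1 on the log2 scale, and only such genes are said to have risen or fallen. The test was limma on log2(FPKM + 0.1), a scale that understates the change of weakly expressed genes. The members left untested were Wnt1, Wnt7a, Wnt8b, Wnt9b and Dkk4. Of these, Wnt7a was at 0.225, 0.0387, 0.103 and 0.247 FPKM in the 4 control samples, at no more than 0.0154 in IMQ + NS skin, and at 0 in all 4 samples with BZLF. With no filter on low values, Wnt7a was called lower in both comparisons with control. Dkk4 was listed at 0 in all control and IMQ + NS samples and reached 0.0532 FPKM in IMQ + BZLF samples. In bulk skin, fewer cells of a type and less RNA per cell cannot be told apart.

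Control replicate 2 stood apart from the other control samples. Its value lay outside the range of the other 3 controls for 39 of the 44 tested members, above it for 29 and below it for 10. Other samples were often outermost too. Among these members IMQ + BZLF replicate 1 was lowest of its group for 18 and highest for 17. IMQ + NS replicate 3 was lowest of its group for 22 and highest for 4. The share over all genes was not counted. The markers of the hair shaft and inner root sheath, 19 keratins and other hair proteins, added up to 2303 FPKM in control replicate 2, 35.0 to 92.2 FPKM in the other controls, 14766 to 19852 FPKM in IMQ + NS samples and 18825 to 27570 FPKM in IMQ + BZLF samples. The 6 melanocyte markers added up to 257 FPKM in it, against 45.1 to 67.1 in the other controls, 203 to 389 in IMQ + NS and 273 to 570 in IMQ + BZLF samples. The 8 hair matrix markers added up to 261 FPKM in it, against 169 to 185, 437 to 462 and 427 to 538. Most of that sum in the other controls was Ctsl, at 159.8 to 172.9 FPKM, which was lower in control replicate 2, at 118.9. Every other marker of this list was highest in control replicate 2 among the controls, such as Dlx3 at 60.5 against 3.72 to 5.61 FPKM. Other lists moved the opposite way: the 8 fibroblast markers added up to 13531 to 19341 FPKM in control samples, 3832 to 5088 in IMQ + NS and 4477 to 8400 in IMQ + BZLF samples, and the 8 skeletal muscle markers to 3789 to 9516, 728 to 1670 and 1236 to 1663 FPKM. The 6 basal epidermal keratinocyte markers, which define the labelled tissue, were present throughout, at 990 to 1346, 3086 to 5239 and 1417 to 2069 FPKM. Between the treated groups the summed neutrophil markers differed most: the 8 genes added up to 33.1 to 52.3 FPKM in control, 3138 to 9900 in IMQ + NS and 68.2 to 90.5 in IMQ + BZLF samples. Most of the IMQ + NS sum was S100a8 and S100a9, at means of 3010 and 2909 FPKM. Of the other neutrophil markers, Cxcr2, Csf3r, Retnlg and Mmp8 were higher in all IMQ + NS than in all IMQ + BZLF samples. Camp, at 7.85 to 14.7 and 4.90 to 9.34 FPKM, and Ly6g overlapped between these groups. The 4 markers of hyperproliferative keratinocytes added up to 189.7 to 616, 2344 to 4207 and 1139.8 to 1392 FPKM. Most of the sum in IMQ + BZLF samples was Krt17, at 1026 to 1239 FPKM, which overlapped IMQ + NS samples at 1214 to 1921. The other markers of this list differed more. Mean FPKM in IMQ + NS and IMQ + BZLF samples were 563 and 104.6 for Krt6a, 407 and 19.9 for Krt6b, and 530 and 21.5 for Krt16. No marker of these lists was at 0 in all samples of a group. The comparisons of members below, with the control group and between the treated groups, go together with these differences, and their part in the results was not tested.

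**Figure D1:**
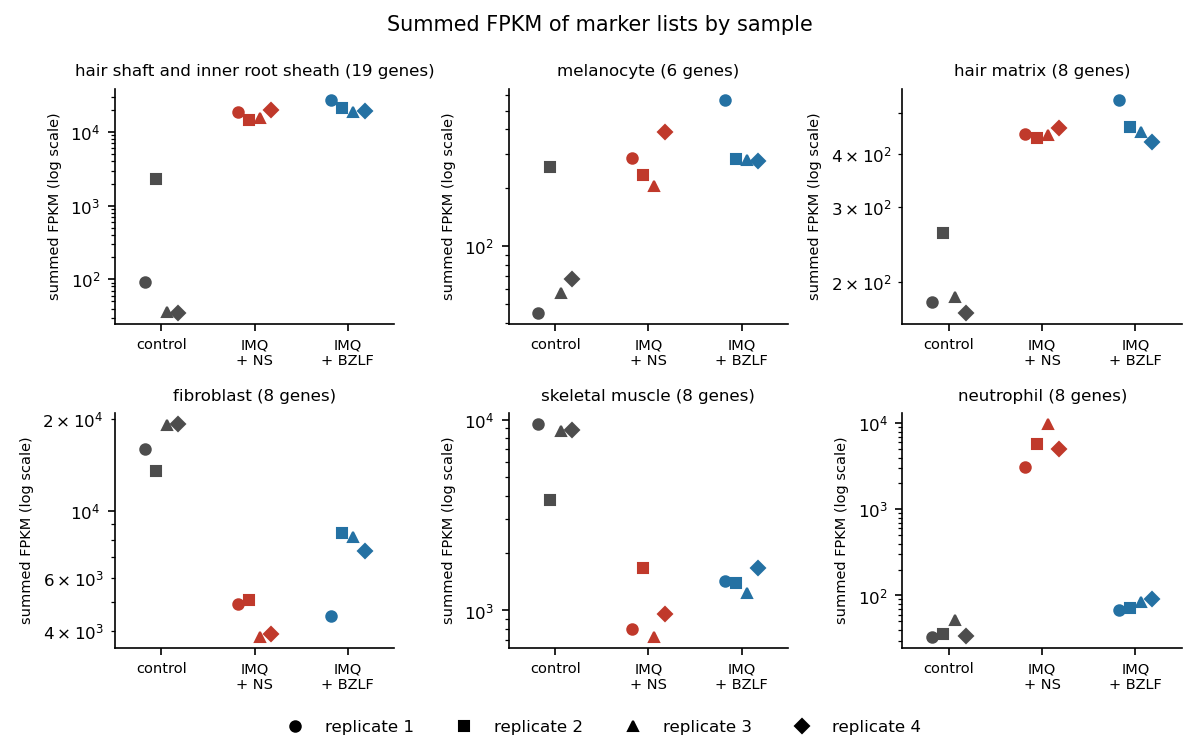
Summed FPKM (log scale) of 6 marker lists in each of the 12 samples, with the symbol giving the replicate. In the hair shaft list control replicate 2 sits at 2303 FPKM, between the other controls at 35.0 to 92.2 and the IMQ + NS samples at 14766 to 19852.

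In IMQ + NS against control skin, 13 of the 44 tested members rose and 7 fell. That is 29.5% higher and 15.9% lower, where 11.4% of all genes tested were higher and 11.0% lower. The rises were among the Wnt ligands, with 7 of 15 higher and 1 lower, and the Frizzled receptors, with 4 of 10 higher and 1 lower. The secreted inhibitors had 0 of 9 higher and 3 lower, and the R-spondins 1 of 4 higher and 2 lower. The median log2 fold change was 0.73 for the ligands, 0.61 for the Frizzled receptors, -0.64 for the secreted inhibitors and -0.95 for the R-spondins, and 0.28 for all 44 members against 0.05 for all genes tested. The inhibitor median was the value of Dkk1, a weakly expressed gene, which was at 0.35 without control replicate 2. Without that sample the inhibitor median was the value of Dkk3, 0.12, so its sign turned. Rspo1, Rspo2, Rspo3 and Rspo4 were then at -1.86, -0.11, -1.09 and 1.09. Samples of the 2 groups did not overlap for 10 members that were higher and 10 that were lower in IMQ + NS. Among all genes tested the groups did not overlap for 23.7% in the higher and 25.7% in the lower direction, so 20 of 44 members is a share close to that of the whole table. Without control replicate 2, 24 members were called, where 14.4% of all genes were higher and 12.2% lower. These were the 20 DEGs above, with Notum, Wif1 and Wnt10b as higher and Wnt7b as lower. Notum and Wif1 are secreted inhibitors, so that role then held members called in both directions.

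In IMQ + BZLF against IMQ + NS skin, 0 of the 44 tested members were DEGs. Among all genes tested, 0.321% were higher and 2.20% lower. By limma with no adjustment, 9 of the 44 members were higher and 2 lower at a p below 0.05, where 7.96% of all genes were higher and 14.8% lower. With an adjusted p below 0.05 and no limit on the fold change, Rspo3, Wnt2 and Fzd4 were higher and Wnt10a was lower, where 1.28% of all genes were higher and 5.17% lower by that rule. The 95% interval of the log2 fold change lay between -1 and 1 for 39 of the 44 members, and passed those limits for Rspo3, Sfrp2, Sfrp4, Wnt2 and Wnt8a. The median log2 fold change of the members was 0.17, against -0.02 for all genes. The summed neutrophil, basal and hyperproliferative keratinocyte markers did not overlap between these groups either, and were higher in IMQ + NS skin.

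**Figure D2:**
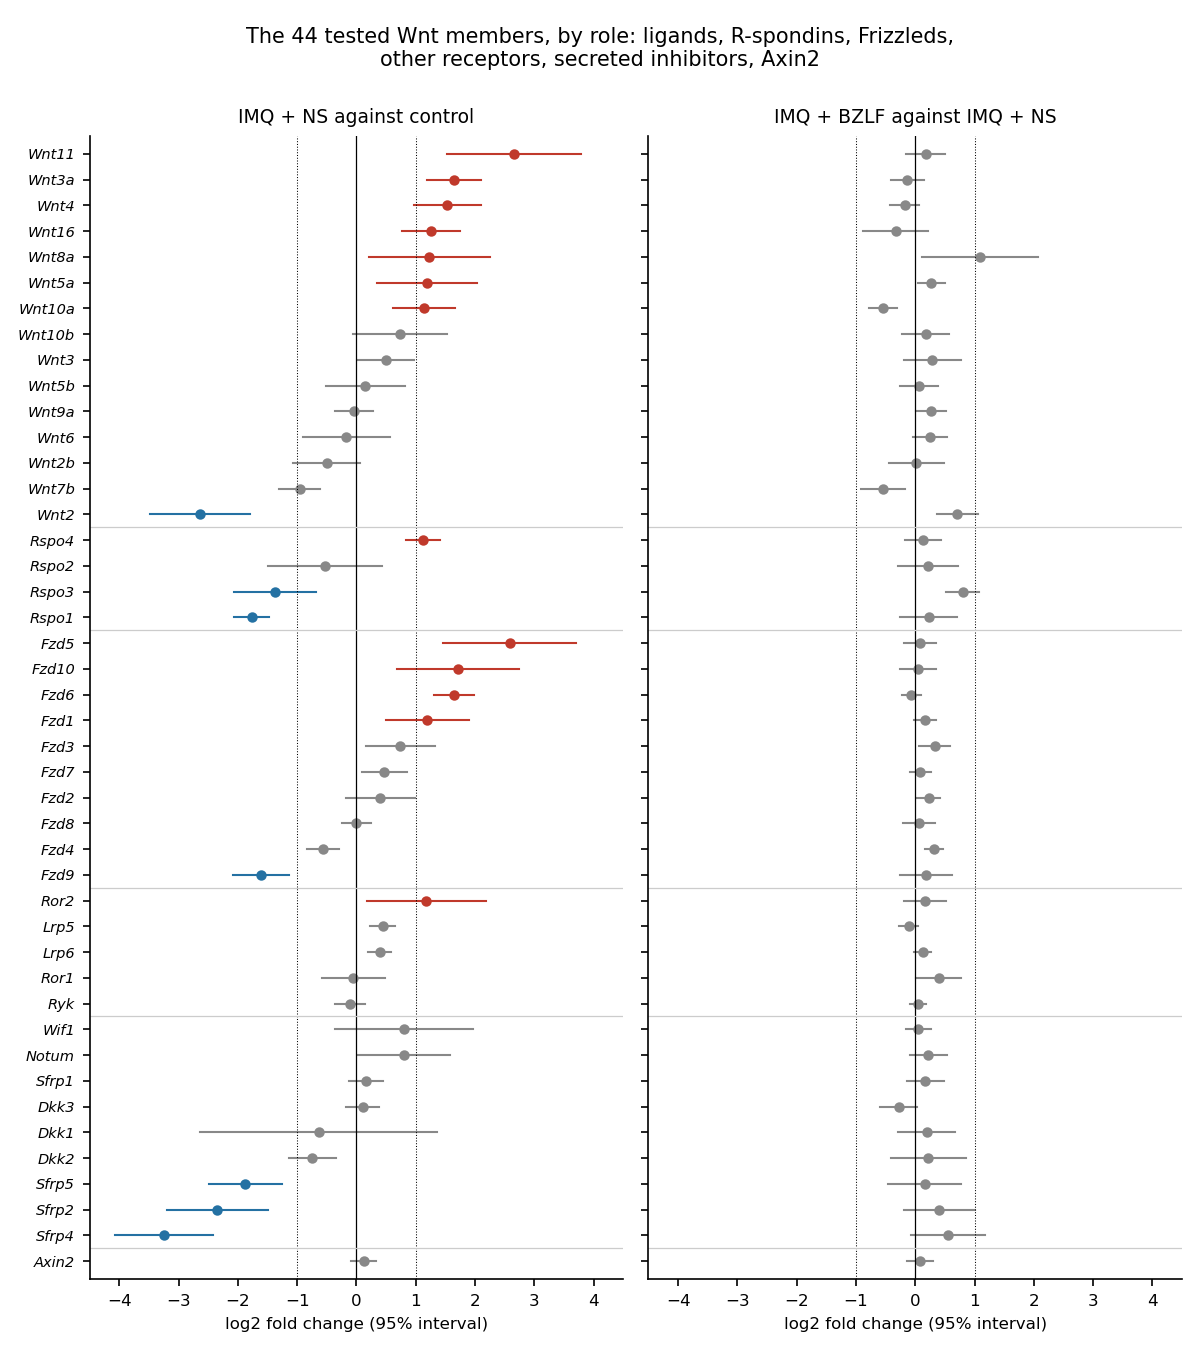
Log2 fold change (point) and its 95% interval (line) of the 44 tested members, by role, in IMQ + NS against control on the left and IMQ + BZLF against IMQ + NS on the right. DEGs are red (13 higher) and blue (7 lower) on the left, none is coloured on the right, and dotted lines mark the limits of -1 and 1.

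In IMQ + BZLF against control skin, 13 members rose and 7 fell, where 9.65% of all genes were higher and 10.1% lower. This comparison uses the same control samples as that of IMQ + NS, and the values of both are given side by side for each member. Of the members, 17 were DEGs in both. Wnt10a, Wnt16 and Rspo3 passed the limits in IMQ + NS and missed them in IMQ + BZLF, and Fzd3, Notum and Wnt7b did the reverse. The difference between the treated groups itself is the comparison above.

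Wnt11, a ligand of the polarity branch, had the largest rise of any tested ligand on the log2(FPKM + 0.1) scale. By the ratio of mean FPKM, Wnt8a, which was near 0 in control skin, ranked above it. It was at 2.998, 12.7, 2.25 and 2.25 FPKM in control replicates 1 to 4, at 25.8, 24.3, 20.8 and 26.6 in IMQ + NS and at 37.5, 22.9, 25.6 and 25.9 in IMQ + BZLF samples. All treated samples lay above all controls, and control replicate 2 stood nearer to them than the other 3 controls did. Against control it was higher by 2.66 on the log2 scale (SE 0.50, adjusted p = 0.00202 by limma) in IMQ + NS and by 2.84 (adjusted p = 0.00194) in IMQ + BZLF skin. The groups with IMQ overlapped, and their difference was 0.18, with an interval from -0.15 to 0.51.

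Wnt4, a ligand made by epidermal keratinocytes, was at 6.06, 14.0, 6.31 and 6.66 FPKM in control mice, 20.8, 23.8, 22.2 and 23.7 in IMQ + NS and 23.8, 18.01, 21.8 and 16.9 in IMQ + BZLF samples. No control reached the treated samples, and the treated groups overlapped. Its log2 fold change was 1.54 (SE 0.25, adjusted p = 9.22e-04 by limma) in IMQ + NS and 1.36 (adjusted p = 0.0028) in IMQ + BZLF against control. Wnt3a, a classical activator of beta-catenin, was at 0.890, 1.55, 1.32 and 0.869 FPKM in control mice, 3.71, 3.66, 3.22 and 4.40 in IMQ + NS and 4.01, 3.59, 2.98 and 3.10 in IMQ + BZLF samples. It too did not overlap between control and treated skin, with log2 fold changes of 1.64 (SE 0.20, adjusted p = 2.2e-04 by limma) and 1.51 (adjusted p = 5.1e-04).

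Wnt10a, a ligand of skin, tooth and hair development, was the only one of the 44 tested members that was lower in IMQ + BZLF than in IMQ + NS skin at an adjusted p below 0.05. It was at 4.67, 10.99, 6.24 and 8.23 FPKM in control mice, 16.5, 14.7, 16.9 and 15.7 in IMQ + NS and 12.6, 9.11, 10.4 and 12.02 in IMQ + BZLF samples. The 4 IMQ + NS samples were the highest of the 12, whereas the control and IMQ + BZLF groups overlapped. Wnt10a rose by 1.14 on the log2 scale (SE 0.23, adjusted p = 0.00302 by limma) with IMQ + NS, and by 0.94 without control replicate 1, which is under the fold limit. IMQ + BZLF skin was lower than IMQ + NS skin by a log2 fold change of -0.54 (SE 0.10, adjusted p = 0.018), with an interval from -0.77 to -0.31.

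Wnt5a, a ligand that signals through Ror2, was at 3.19, 8.60, 2.53 and 2.22 FPKM in control mice, 8.51, 8.22, 7.25 and 9.06 in IMQ + NS and 11.8, 8.89, 9.71 and 9.73 in IMQ + BZLF samples. Control replicate 2 lay within the range of the IMQ + NS samples and below all IMQ + BZLF samples. The log2 fold change of 1.20 (SE 0.37, adjusted p = 0.0231 by limma) in IMQ + NS depended on single samples, and the exact permutation test gave p = 0.114. The call was lost without control replicate 1 (1.15), 3 (1.04) or 4 (0.98) and without IMQ + NS replicate 1 (1.18) or 4 (1.15), and without control replicate 2 the value was 1.62. With BZLF it was 1.47 against control (adjusted p = 0.0103).

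Wnt2, the tested ligand with the largest fall on that scale, was at 9.27, 2.51, 5.94 and 3.43 FPKM in control mice, 0.625, 0.519, 0.746 and 0.813 in IMQ + NS and 1.26, 1.06, 1.05 and 1.26 in IMQ + BZLF samples. The 3 groups did not overlap, and the IMQ + BZLF samples lay between the others. Its log2 fold change was -2.64 (SE 0.37, adjusted p = 4.5e-04 by limma) in IMQ + NS and -1.93 (adjusted p = 0.00228) in IMQ + BZLF against control, and 0.71 (SE 0.15, adjusted p = 0.0293) between the treated groups. The summed fibroblast markers, with the fall given above, were highest in control skin too. Not all of them fell alike. Mean FPKM in control, IMQ + NS and IMQ + BZLF skin were 16.0, 15.3 and 14.5 for Pdgfra and 16.6, 13.0 and 11.9 for Pdgfrb. Samples of the groups overlapped for both.

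Wnt7b, another keratinocyte ligand, was at 4.06, 3.68, 4.90 and 4.69 FPKM in control mice, 1.95, 2.58, 2.46 and 1.81 in IMQ + NS and 1.17, 1.57, 1.83 and 1.35 in IMQ + BZLF samples. Controls were above all treated samples, and IMQ + BZLF replicate 3 just overlapped the IMQ + NS group. Its log2 fold change of -0.95 in IMQ + NS (adjusted p = 8.93e-04 by limma) was under the fold limit, which it passed without control replicate 2 or without IMQ + NS replicate 2 or 3 (-1.03, -1.03 and -1.01). Against control it was -1.50 in IMQ + BZLF (adjusted p = 2.08e-04), and between the treated groups -0.54 (adjusted p = 0.0878).

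**Figure D3:**
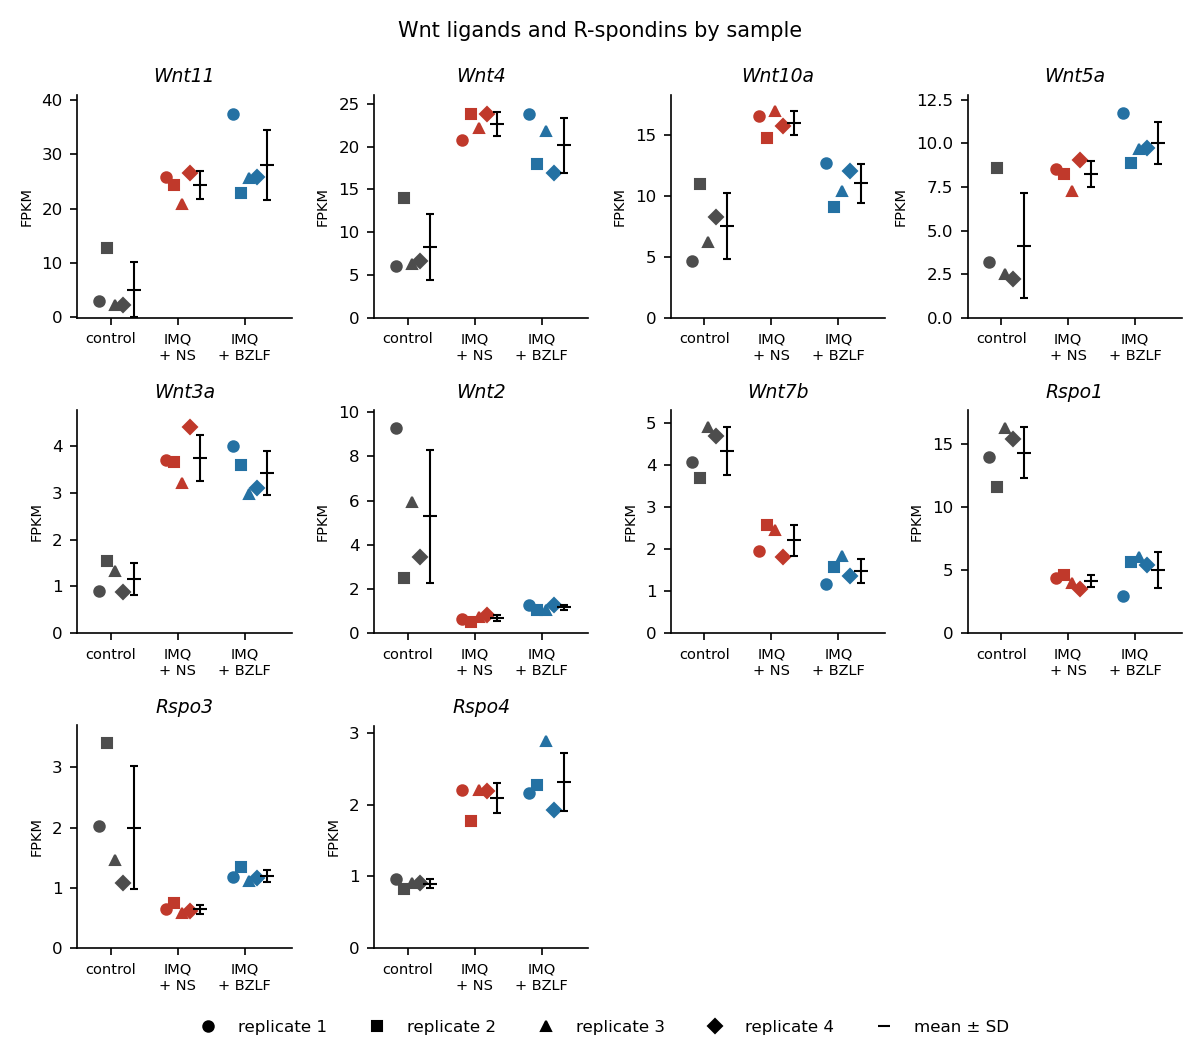
FPKM of 7 Wnt ligands and 3 R-spondins in each sample, with the symbol giving the replicate and black bars the mean and SD of 4 samples. Wnt10a is highest in all 4 IMQ + NS samples (14.7 to 16.9 FPKM), and Wnt2 is lowest in them (0.519 to 0.813 FPKM).

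Among weakly expressed ligands, Wnt16 rose from 0.227 ± 0.076 FPKM (SD, n = 4) in control to 0.673 ± 0.094 in IMQ + NS and was at 0.539 ± 0.201 in IMQ + BZLF skin. Its log2 fold change in IMQ + NS was 1.27 (adjusted p = 0.00123 by limma). Wnt8a was listed at 0 in control replicates 1, 3 and 4 and at 0.0165 FPKM in replicate 2. It was at 0.245, 0, 0.115 and 0.377 FPKM in IMQ + NS and at 0.390, 0.342, 0.550 and 0.418 in IMQ + BZLF samples. The Wnt8a call in IMQ + NS (1.23, adjusted p = 0.0425) was lost without control replicate 1, 3 or 4 (1.21 each) and without IMQ + NS replicate 1 (1.06), 3 (1.29) or 4 (0.91), whereas in IMQ + BZLF against control the value was 2.32 (adjusted p = 5.56e-05). Between the treated groups it was 1.09, which failed the correction (adjusted p = 0.176).

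The 2 ligands with the highest mean over all samples were Wnt11, at 19.1 FPKM, and Wnt4, at 17.0 FPKM. They were followed by Wnt10a at 11.5 and Wnt3 at 10.01 FPKM. Wnt3, a ligand of the beta-catenin branch, had 7.21 ± 1.54 FPKM in control mice, 10.2 ± 2.39 in IMQ + NS and 12.6 ± 3.28 in IMQ + BZLF skin and was not called in any comparison. In IMQ + BZLF against control it was higher by 0.78 (adjusted p = 0.0132 by limma), under the fold limit, and these groups did not overlap. Wnt10b, a ligand linked to hair growth, was at 3.65 ± 2.25, 5.57 ± 1.17 and 6.25 ± 1.04 FPKM. Its difference in IMQ + NS against control was 0.73 (adjusted p = 0.102 by limma), and 1.09 (adjusted p = 0.0014) without control replicate 2. In IMQ + BZLF against control it was 0.91 (adjusted p = 0.0473), under the fold limit. Wnt2b, Wnt5b, Wnt6 and Wnt9a passed the test in no comparison.

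Several ligand genes lie next to each other in the RefSeq annotation of GRCm38.p6. Wnt6 and Wnt10a are separated by 6696 bases on chromosome 1. Wnt10a was called in IMQ + NS skin, while its neighbour Wnt6 differed by -0.17 (adjusted p = 0.68 by limma). Wnt3a and Wnt9a are separated by 16097 bases on chromosome 11, and Wnt3a was called whereas Wnt9a was at -0.04 (adjusted p = 0.823). Whether neighbours differed from each other was not tested. Wnt9b and Wnt3 overlap by annotation on the same chromosome, so their reads may not be fully separable.

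TCF/LEF factors bind short DNA motifs, and the letters CTTTGAA and CTTTGAT were searched on both strands in RefSeq promoters of GRCm38.p6, from 250 bases before to 50 after each start. A promoter entry was found for 32 of the 49 members, and 3 of these 32 held a match (9.38%). Of all 27025 genes with an entry, 2671 (9.88%) held one, so the share among members is close to that of the whole table. Of 14 members with an entry that were called in a comparison, 1 held a match, Wnt11. A match is a description of the letters, and no match says only that these letters were not in the window. The 3 windows of 60 bases are shown because they are the whole set of matches among members, with the matched letters in capitals and each printed on the strand of its gene. Wnt11 is at chr7:98835035-98835094 on the plus strand, with the match on the opposite strand. Wnt5b is at chr6:119449424-119449483 and Dkk1 at chr19:30549580-30549639, both on the minus strand.
Wnt11: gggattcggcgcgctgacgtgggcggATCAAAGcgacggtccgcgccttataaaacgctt
Wnt5b: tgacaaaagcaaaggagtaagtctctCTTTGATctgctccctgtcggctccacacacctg
Dkk1: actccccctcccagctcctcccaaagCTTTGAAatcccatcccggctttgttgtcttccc
The match began 51 bases before the start of Wnt11, 71 before that of Wnt5b and 117 before that of Dkk1. Wnt11 was called against control in both treated groups. Wnt5b, at 2.30 ± 1.14 FPKM in control and 2.39 ± 0.324 in IMQ + NS skin, passed the test in no comparison. Dkk1, an inhibitor of Lrp5 and Lrp6, was at 0.145, 2.005, 0 and 0 FPKM in control and at 0.0444 to 0.0886 FPKM in IMQ + NS samples, so that its control mean rests on replicate 2.

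Among the R-spondins, Rspo1 and Rspo3 fell and Rspo4 rose in IMQ + NS against control skin. Rspo1 was at 14.0, 11.6, 16.3 and 15.4 FPKM in control mice, 4.41, 4.61, 4.01 and 3.48 in IMQ + NS and 2.91, 5.65, 6.06 and 5.39 in IMQ + BZLF samples. The treated samples lay at 6.06 FPKM or below and did not overlap the controls. Rspo1 changed by a log2 of -1.77 (SE 0.13, adjusted p = 1.86e-05 by limma) in IMQ + NS and -1.54 (adjusted p = 7.99e-04) in IMQ + BZLF, and the treated groups differed by 0.23, with an interval from -0.26 to 0.71.

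Rspo3 had the lowest adjusted p of any member between the treated groups. It was at 2.04, 3.41, 1.47 and 1.09 FPKM in control mice, 0.643, 0.752, 0.581 and 0.614 in IMQ + NS and 1.18, 1.35, 1.11 and 1.17 in IMQ + BZLF samples. All 4 IMQ + BZLF samples were above all 4 IMQ + NS samples and within the range of the controls. Its log2 fold change was -1.38 (SE 0.30, adjusted p = 0.00495 by limma) in IMQ + NS against control, -0.57 (adjusted p = 0.137) in IMQ + BZLF against control and 0.80 (SE 0.12, adjusted p = 0.00866) between the treated groups, with an interval from 0.52 to 1.08.

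Rspo4, the R-spondin of nail and dermal papilla, was at 0.964, 0.822, 0.908 and 0.905 FPKM in control mice, 2.20, 1.78, 2.21 and 2.18 in IMQ + NS and 2.17, 2.28, 2.88 and 1.93 in IMQ + BZLF samples. Control replicate 2 was the lowest of its group, unlike for the other members that rose, and no control overlapped a treated sample. Rspo4 rose by 1.13 on the log2 scale (SE 0.13, adjusted p = 1.36e-04 by limma) in IMQ + NS and 1.26 (adjusted p = 2.86e-04) in IMQ + BZLF against control. The 10 dermal papilla markers, of which Rspo4 is 1, added up to 83.1 FPKM in control replicate 2, 33.5 to 44.7 in the other controls, 28.9 to 36.1 in IMQ + NS and 26.1 to 38.6 in IMQ + BZLF samples. Sox18 made up 60.5 FPKM of the sum in control replicate 2 and 20.1 to 29.2 in the other controls. Markers of this list went both ways. Mean FPKM in control and IMQ + NS skin were 33.1 and 17.7 for Sox18 and 7.78 and 3.10 for Fgf7. They were 0.898 and 2.46 for Corin and 2.28 and 3.06 for Alpl. Rspo2 was low, at 0.222 ± 0.229 FPKM in control and 0.0903 ± 0.0263 in IMQ + NS skin, and passed the test in no comparison.

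Among the Frizzled receptors, Fzd5, Fzd6, Fzd10 and Fzd1 rose and Fzd9 fell in IMQ + NS against control skin. Fzd5, a receptor for Wnt ligands of both branches, was at 1.37, 7.43, 1.36 and 1.42 FPKM in control mice, 14.3, 13.5, 12.5 and 12.8 in IMQ + NS and 18.5, 12.8, 12.8 and 12.9 in IMQ + BZLF samples. Control replicate 2 lay far above the others of its group but below all treated samples. Fzd5 rose by 2.59 on the log2 scale (SE 0.49, adjusted p = 0.00232 by limma) in IMQ + NS, or 3.17 without that sample, and 2.67 in IMQ + BZLF, or 3.26 without it. Between the treated groups it was 0.08, with an interval from -0.19 to 0.35.

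Fzd6, a polarity receptor of hair patterning and nails, was at 6.005, 10.3, 7.001 and 7.31 FPKM in control mice, 24.2, 23.6, 23.3 and 23.7 in IMQ + NS and 25.0, 22.1, 19.9 and 23.6 in IMQ + BZLF samples. The IMQ + NS samples lay within 1 FPKM of each other and far above all controls. Its rise of 1.65 on the log2 scale (SE 0.15, adjusted p = 4.71e-05 by limma) in IMQ + NS and 1.58 (adjusted p = 1.48e-04) in IMQ + BZLF had the lowest adjusted p among the receptors that rose. The treated groups differed by -0.07, with an interval from -0.23 to 0.09.

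Fzd1 and Fzd10 rose on average, but control and IMQ + NS samples overlapped for both through control replicate 2. Control and IMQ + BZLF samples overlapped in the same way for Fzd10 and did not for Fzd1. Fzd10 was at 4.69, 23.3, 6.38 and 5.03 FPKM in control mice, 25.9, 26.4, 22.2 and 27.6 in IMQ + NS and 34.1, 21.2, 26.1 and 25.0 in IMQ + BZLF samples. Its log2 fold change was 1.71 (SE 0.45, adjusted p = 0.0117 by limma) in IMQ + NS and 1.75 (adjusted p = 0.0124) in IMQ + BZLF, and 2.24 and 2.28 without control replicate 2. Fzd1, the most abundant Frizzled receptor, was at 18.2, 45.6, 16.1 and 16.5 FPKM in control mice, 52.9, 52.3, 43.3 and 51.2 in IMQ + NS and 63.1, 53.7, 52.6 and 55.2 in IMQ + BZLF samples. Its value in control replicate 2 was above that in IMQ + NS replicate 3, and the log2 fold change was 1.20 (SE 0.31, adjusted p = 0.0103) in IMQ + NS and 1.37 (adjusted p = 0.00587) in IMQ + BZLF.

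Fzd9 was at 1.77, 1.09, 1.83 and 1.97 FPKM in control mice, 0.365, 0.483, 0.507 and 0.520 in IMQ + NS and 0.366, 0.604, 0.564 and 0.671 in IMQ + BZLF samples. All controls were above all treated samples, with log2 fold changes of -1.61 (SE 0.20, adjusted p = 2.81e-04 by limma) and -1.43 (adjusted p = 0.00122). Fzd3, a receptor of the polarity branch, was at 0.825, 1.67, 0.875 and 0.641 FPKM in control mice, 1.92, 1.53, 1.73 and 1.43 in IMQ + NS and 2.22, 2.16, 2.03 and 1.93 in IMQ + BZLF samples. All IMQ + BZLF samples of Fzd3 lay above all other samples. It was called in IMQ + BZLF against control at 1.07 (adjusted p = 0.00706), or 0.90 and under the fold limit without control replicate 4, and was at 0.74 (adjusted p = 0.0362) in IMQ + NS against control.

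Fzd4, a receptor known from blood vessel formation, fell short of the fold limit in each comparison. It was at 26.2, 21.5, 18.5 and 19.2 FPKM in control mice, 13.0, 15.2, 13.8 and 15.1 in IMQ + NS and 17.0, 17.5, 17.6 and 18.7 in IMQ + BZLF samples. The IMQ + NS samples were below all others, by a log2 fold change of -0.57 against control (adjusted p = 0.00373 by limma), and IMQ + BZLF was 0.31 above IMQ + NS (adjusted p = 0.0274). Fzd7 was at 15.4 ± 4.14 FPKM in control mice, 21.0 ± 2.06 in IMQ + NS and 22.2 ± 1.14 in IMQ + BZLF skin and was not called. Against control it was higher by 0.47 (adjusted p = 0.0387 by limma) and 0.56 (adjusted p = 0.0174), under the fold limit. Fzd2 and Fzd8 passed the test in no comparison. Between IMQ + BZLF and IMQ + NS, groups did not overlap for 5 members in the higher direction, Rspo3, Wnt2, Fzd3, Fzd4 and Wnt9a, and for Wnt10a in the lower. Among all genes tested those shares were 4.24% and 10.9%.

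Ror2, the receptor for Wnt5a, was at 1.95, 6.80, 1.35 and 1.60 FPKM in control mice, 6.19, 5.70, 4.22 and 5.82 in IMQ + NS and 7.29, 4.94, 5.52 and 6.95 in IMQ + BZLF samples. Control replicate 2 was above every IMQ + NS sample. Ror2 differed by a log2 fold change of 1.18 (SE 0.44, adjusted p = 0.0479 by limma) in IMQ + NS, and the exact permutation test gave p = 0.143. The call was lost on leaving out any 1 of the 8 samples other than control replicate 2, with values from 0.94 without control replicate 3 to 1.30 without IMQ + NS replicate 3, and was 1.68 without control replicate 2. For IMQ + BZLF against control it was 1.35 (adjusted p = 0.0312) and was lost without control replicate 1 (1.27), 3 (1.10) or 4 (1.18) and again without replicate 1 (1.26), 3 (1.40) or 4 (1.29) of the IMQ + BZLF group.

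Apart from Ror2, no receptor of this role was called. Ryk, an atypical Wnt receptor, had the highest mean of this group, at 44.1 ± 7.31 FPKM in control mice, 40.6 ± 1.52 in IMQ + NS and 41.9 ± 3.19 in IMQ + BZLF skin. Lrp5 was at 16.1 ± 1.78, 21.9 ± 1.29 and 20.2 ± 1.54 FPKM, and Lrp6 at 11.9 ± 1.11, 15.6 ± 0.766 and 17.1 ± 1.18. In IMQ + NS against control they were higher by 0.44 (adjusted p = 0.00391 by limma) and 0.39 (adjusted p = 0.00508), under the fold limit, and neither overlapped between these groups.

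**Figure D4:**
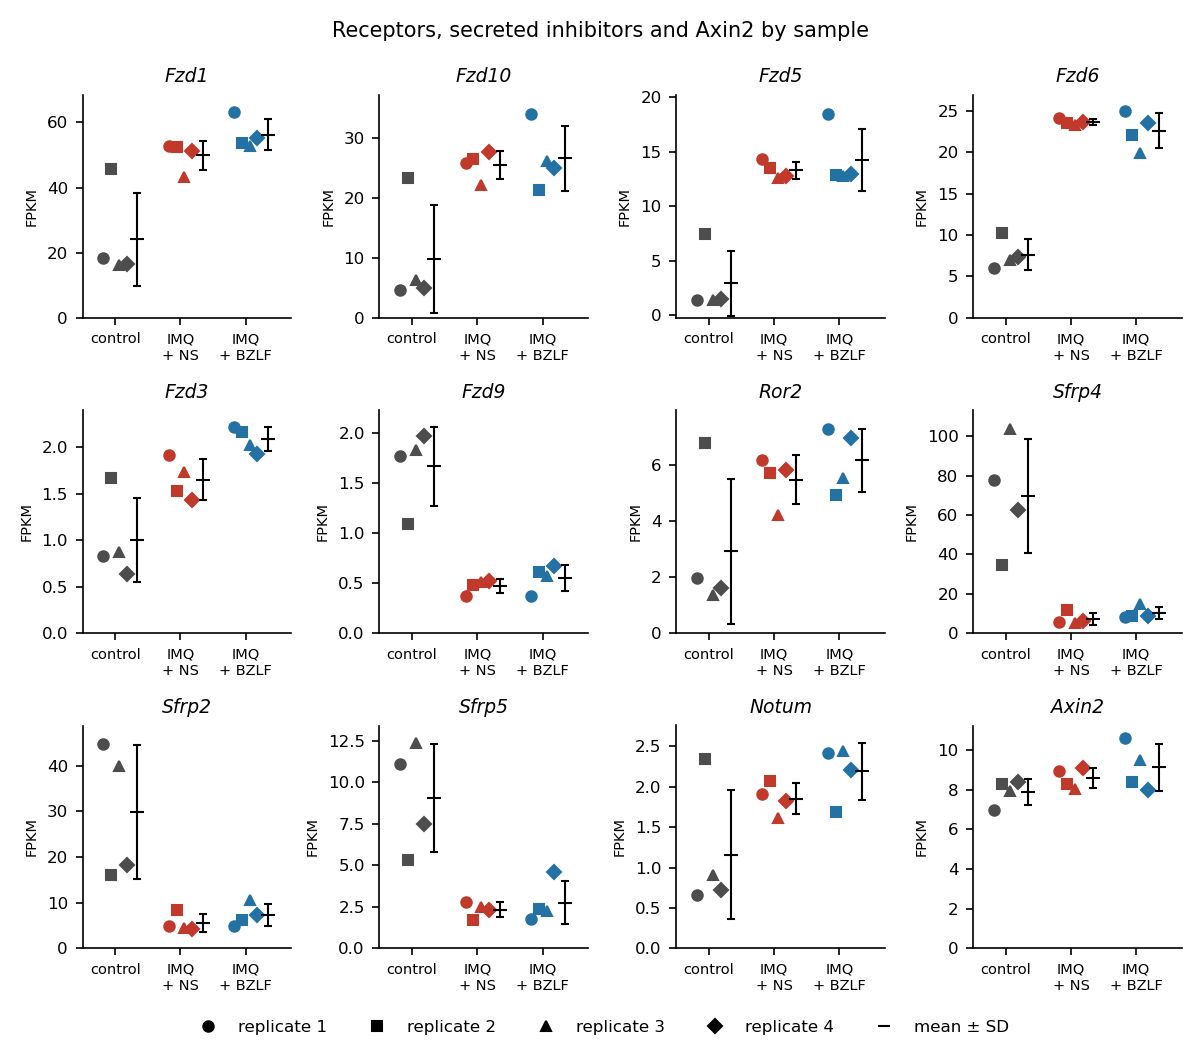
FPKM of 7 receptors, 4 secreted inhibitors and Axin2 in each sample, with the symbol giving the replicate and black bars the mean and SD of 4 samples. In the panels of Fzd1, Fzd10, Fzd5 and Ror2, control replicate 2 (45.6, 23.3, 7.43 and 6.80 FPKM) lies above the other controls.

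Of the secreted inhibitors, Sfrp2, Sfrp4 and Sfrp5 fell in both treated groups. The Sfrp proteins carry a Frizzled-like domain and bind Wnt ligands outside the cell. Sfrp4 was at 77.8, 34.3, 104 and 62.7 FPKM in control mice, 5.60, 11.7, 5.02 and 6.15 in IMQ + NS and 8.34, 8.86, 14.8 and 8.82 in IMQ + BZLF samples. It went from the highest mean of any inhibitor in control skin to 7.12 FPKM in IMQ + NS skin, with all controls far above all treated samples. Sfrp4 changed by a log2 of -3.25 (SE 0.36, adjusted p = 1.45e-04 by limma) in IMQ + NS, the largest fall of any tested member on this scale, and -2.69 (adjusted p = 3.33e-04) in IMQ + BZLF. The treated groups differed by 0.56, with an interval from -0.06 to 1.18 (adjusted p = 0.265).

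Sfrp2 was at 44.9, 16.1, 40.0 and 18.3 FPKM in control mice, 4.93, 8.35, 4.40 and 4.15 in IMQ + NS and 4.89, 6.31, 10.6 and 7.23 in IMQ + BZLF samples. Sfrp5 was at 11.1, 5.32, 12.4 and 7.47 FPKM in control mice, 2.79, 1.71, 2.46 and 2.30 in IMQ + NS and 1.75, 2.37, 2.24 and 4.63 in IMQ + BZLF samples. For both, controls lay above all treated samples and the treated groups overlapped. Their log2 fold changes in IMQ + NS were -2.34 (SE 0.37, adjusted p = 8.7e-04 by limma) and -1.87 (SE 0.27, adjusted p = 5.32e-04), and in IMQ + BZLF -1.94 (adjusted p = 0.00275) and -1.71 (adjusted p = 0.00336). Sfrp1, the other abundant member of the family, was at 22.2 FPKM (18.7 to 25.4) in control mice, 24.9 ± 2.90 in IMQ + NS and 28.2 ± 5.96 in IMQ + BZLF skin, and its log2 fold change in IMQ + NS was 0.17, with an interval from -0.12 to 0.46.

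Notum, an enzyme that removes the lipid from Wnt ligands, was at 0.663, 2.35, 0.912 and 0.717 FPKM in control mice, 1.90, 2.07, 1.61 and 1.83 in IMQ + NS and 2.42, 1.69, 2.45 and 2.21 in IMQ + BZLF samples. Control replicate 2 was above all IMQ + NS samples. In IMQ + NS against control the log2 fold change was 0.80 (adjusted p = 0.0745 by limma), or 1.18 (adjusted p = 1.52e-04) without that sample. For IMQ + BZLF against control it was 1.03 (adjusted p = 0.0364), and the call was lost without control replicate 1 (0.84), 3 (0.98) or 4 (0.88) and again without replicate 1 (0.97), 3 (0.97) or 4 (1.02) of the IMQ + BZLF group.

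Wif1, a secreted Wnt-binding protein, was at 6.999, 27.5, 4.09 and 4.998 FPKM in control mice, with IMQ + NS samples at 13.3 to 14.9 FPKM and IMQ + BZLF samples at 12.6 to 17.1. The value of control replicate 2 was higher than every treated sample and the other 3 controls were lower. The log2 fold change in IMQ + NS was 0.80 (adjusted p = 0.209 by limma), or 1.40 without control replicate 2. Dkk2 was at 5.79 ± 1.28 FPKM in control and 3.38 ± 0.419 in IMQ + NS skin, a log2 fold change of -0.74 (adjusted p = 0.00658) under the fold limit. Dkk3 was at 19.0 ± 2.66, 20.4 ± 2.11 and 16.9 ± 3.50 FPKM and passed the test in no comparison.

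Axin2, which beta-catenin signaling switches on and which is often read as a measure of it, was at 6.96, 8.27, 7.94 and 8.38 FPKM in control mice, 8.93, 8.31, 8.02 and 9.08 in IMQ + NS and 10.6, 8.40, 9.52 and 8.01 in IMQ + BZLF samples. All groups overlapped. Axin2 differed by a log2 of 0.12 in IMQ + NS from control (adjusted p = 0.279 by limma), with an interval from -0.09 to 0.33. Between the treated groups it was 0.08, with an interval from -0.13 to 0.30. For Axin2, control replicate 2 was within the range of the other controls.

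**Figure D5:**
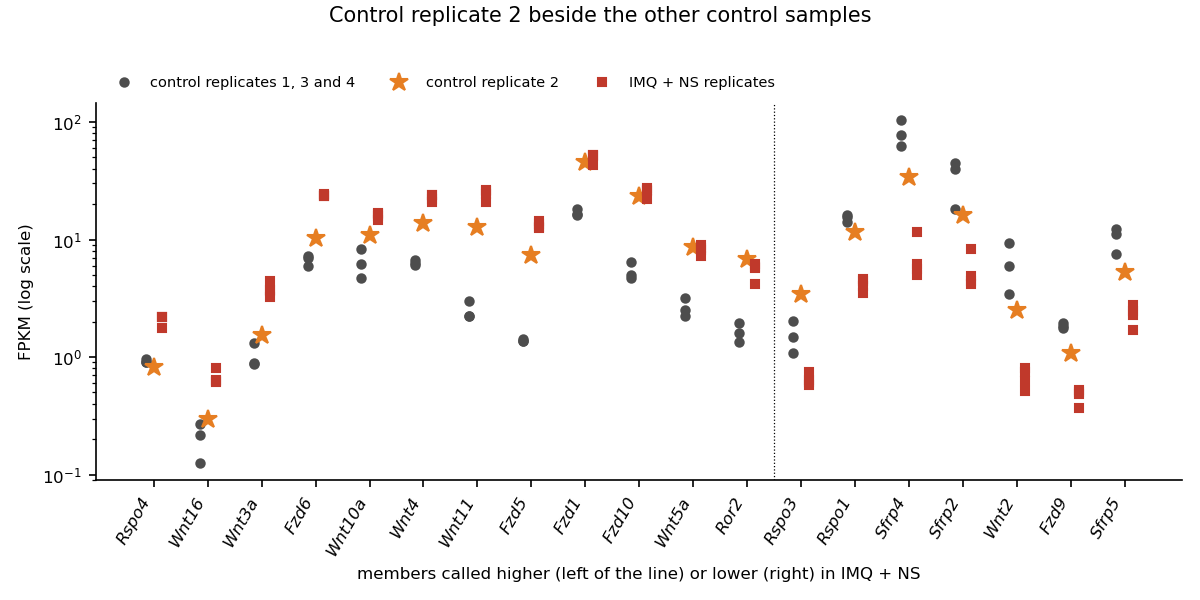
FPKM (log scale) of the members called in IMQ + NS against control, without Wnt8a, which was listed at 0 in most controls; 12 higher members stand left of the line and 7 lower ones right of it. The star of control replicate 2 lies between the other controls (grey) and the IMQ + NS samples (red) for most members.

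For the members that were called, the position of control replicate 2 relative to the other controls followed the direction of the call. Of the 13 members that rose in IMQ + NS skin it was above the other controls in 12 and below them for Rspo4. Of the 7 that fell it was below the other controls in 6 and above them for Rspo3. On the log2 scale, this sample stood at a median of 62.0% of the way from the other controls to the IMQ + NS mean for the members that rose, and 38.0% for those that fell. The IMQ + NS mean contributed to the choice of these members, so these shares are a description.

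Among 63 other genes of the pathway, of which 62 were tested, 17 rose and 2 fell in IMQ + NS against control skin, 27.4% and 3.23%, where 11.4% of all genes tested were higher and 11.0% lower. The counts of single lists below, of 2 to 20 genes each, stand against the same shares. The median log2 fold change of the 62 genes was 0.55. Porcn, the enzyme that attaches the lipid to Wnt ligands, went from 4.50 ± 0.212 to 14.1 ± 1.50 FPKM, a log2 fold change of 1.62 (adjusted p = 4.84e-06 by limma), and was at 4.75 FPKM in control replicate 2. Of 4 TCF/LEF factors, Lef1 and Tcf7 rose. Lef1 was at 8.08 FPKM in control replicate 2 and 0.424 to 0.695 in the other controls, against a mean of 11.05 in IMQ + NS, with a log2 fold change of 3.23 (adjusted p = 0.00829), or 4.17 without that sample. Of 10 tested polarity genes, Celsr1, Celsr2, Prickle2 and Vangl2 rose. Celsr1, an adhesion receptor that orients hair follicles, had the largest of these changes, 2.05 (adjusted p = 1.98e-04).

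Of 13 target and feedback genes of the pathway, Msx2, Sp6, Nkd2, Ccn4 and Cd44 rose and Dact1 and Dact3, intracellular modulators, fell. Msx2, a factor of the hair matrix, was at 24.0 FPKM in control replicate 2 and 0.584 to 2.15 in the other controls, against 55.7 ± 9.92 in IMQ + NS skin, with a log2 fold change of 4.53 (adjusted p = 0.00446 by limma), 5.64 without control replicate 2 and 3.92 without control replicate 4. Dact1 was at 6.89 ± 1.96 FPKM in control and 2.24 ± 0.625 in IMQ + NS skin, a log2 fold change of -1.57 (adjusted p = 0.00105). Dact3 was at -1.05, and its call was lost without control replicate 3 (-0.999) or IMQ + NS replicate 2 (-0.96). Of the list of 8 other antagonists, Bambi and Tpbg rose, of which Bambi is known as a decoy receptor for TGF-beta family signals rather than as a Wnt antagonist. Of 20 intracellular genes, Bcl9 and Csnk1e rose. Of 5 genes of R-spondin signaling, Lgr5, an R-spondin receptor of hair follicle stem cells, was at 3.95 ± 2.79 and 7.57 ± 0.902 FPKM, a log2 fold change of 1.12 (adjusted p = 0.0275), whose call was lost without control replicate 1 (0.90), 3 (1.05) or 4 (1.001) and without IMQ + NS replicate 1 (1.05), 2 (1.12) or 3 (1.13).

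In IMQ + BZLF against IMQ + NS skin, 0 of these 62 genes rose and 1 fell (1.61%), where 0.321% of all genes were higher and 2.20% lower. The gene that fell was Draxin, a secreted antagonist of Lrp6, at 0.503 to 1.32 FPKM in IMQ + NS and 0.178 to 0.402 with BZLF, a difference of -1.41 on the log2 scale (adjusted p = 0.0237 by limma). The call was lost without IMQ + BZLF replicate 2 (-1.41) or 3 (-1.34), and without IMQ + NS replicate 2 (-1.35), 3 (-1.20) or 4 (-1.46). Cd44, a cell surface glycoprotein, and Porcn had log2 fold changes of -0.67 (adjusted p = 0.00354) and -0.45 (adjusted p = 0.0203), under the fold limit. The median over the 62 genes was 0.02.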

How the data were processed

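Back skin of 12 mice, 4 in each group, was sequenced on day 10. The authors deposited FPKM values, 1 per gene and sample, normalized for transcript length and sequencing depth and not pooled over replicates. In the methods the authors name Bowtie2 alignment to transcripts, eXpress and a DESeq2 test of counts, whereas the submitters' processing notes name mm10, fastp, HISAT2, HTSeq and R 3.2.0. These accounts differ, so which tools made the FPKM values is not settled here. The library kits named by the methods and by the labels differ too. Counts were not analysed here, so the sampling error of a value is not known and the 4 replicates give the precision. Low FPKM values fall on steps that differ between samples, from which each sample's depth relative to control replicate 1 was estimated at 0.957 to 1.03. Doublings were folded away in this estimate, so a doubled depth could not have been seen. In the samples set against control replicate 1, 41.2% to 55.1% of the low values used lay on such steps. A limma p-value weighs the difference between groups against the spread between their samples, which is moderated by a trend over all genes.

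Genes with a mean of at least 0.1 FPKM, 15288 of 18505, were tested on log2(FPKM + 0.1) with limma 3.58.1 in R 4.3.3, separately for each pair of groups with a trend on expression, and adjusted by the Benjamini-Hochberg method over all genes. FPKM allows no count model, so limma took its place. For single members an exact two-sided permutation test of 4 against 4 samples was added, whose smallest possible p is 0.0286. Members were named with every sample's value where they were DEGs in a comparison and reached a mean of 1 FPKM in a group, and the 2 most abundant members of each role and DEGs of lower level by their means. Fzd4 and other members outside this rule were named after their values were seen. The members, roles, pathway lists and marker lists were chosen with earlier results of these data known. Alternatives were other added constants, filters, scalings, variance models, thresholds, a replicate block and leaving out each sample. Promoter sequences came from RefSeq (GRCm38.p6). Scripts were tested on simulated data. Python 3.11.15, pandas 2.3.3 and matplotlib 3.10.9 were used.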

Additional observations from a re-analysis of the deposited data

Results flagged for a closer look

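For the 27 members that the naming rule covers, of which 23 were DEGs, each group of 4 samples was checked for a sample whose gap to the nearest other took up nearly the whole range of the group. This held in 14 of 81 groups, of which 9 were control replicate 2. For independent values of a normal distribution it would hold in about 1 in 20 groups. These groups share the same samples and most members were chosen as DEGs, so the count cannot be weighed against that rate. The cause was not tested.

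Control replicate 2 was far above the other controls for Fzd1 (45.6 FPKM), Fzd10 (23.3), Fzd5 (7.43), Ror2 (6.80), Wnt11 (12.7), Wnt4 (14.0), Wnt5a (8.60) and Notum (2.35), and for Wnt8a (0.0165) the other controls were listed at 0. Among IMQ + NS samples, replicate 2 was far from the other 3 for Sfrp4 (11.7 FPKM, high), Wnt16 (0.813, high) and Rspo4 (1.78, low). Among IMQ + BZLF samples, replicate 1 was high for Fzd5 (18.5 FPKM) and replicate 3 for Sfrp4 (14.8 FPKM).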

How the results depend on the processing

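Of 240 counts of called genes recomputed under an alternative, 213 lay within 1.5 times the reported one and 27 did not. With a constant of 1 in the logarithm, 8 members were higher in IMQ + NS against control in place of 13, and Fzd9, Ror2, Rspo3, Rspo4, Wnt16, Wnt5a and Wnt8a lost their call; a constant of 1 pulls low values together. In IMQ + BZLF against IMQ + NS, the 0 members became 3 higher and 1 lower with no limit on the fold change, and 1 higher (Wnt8a) with an unadjusted p. Of the other pathway genes, with no limit on the fold change 36 were higher and 7 lower in IMQ + NS against control, 3 lower in IMQ + BZLF against IMQ + NS, and 35 higher and 9 lower in IMQ + BZLF against control. In IMQ + NS against control the 2 lower became 1 with a constant of 1 and 4 with equal sums or quantile normalization. In IMQ + BZLF against IMQ + NS the 1 lower became 0 with a constant of 1, a mean of at least 1 FPKM or all 12 samples in one fit, and in IMQ + BZLF against control the 4 lower became 0 with a constant of 1. Dropping the fold limit can only add calls. A mean of at least 1 FPKM left out Draxin, whose mean was below 1 FPKM in every group. What changed the other counts was not tested. Rescaling to equal sums moved the median of all genes from 0.05 to -0.07 in IMQ + NS and from -0.02 to -0.12 in IMQ + BZLF against control.

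Leaving out 1 sample gave 9 to 16 members higher and 7 to 8 lower in IMQ + NS against control, 0 to 0 in IMQ + BZLF against IMQ + NS, and 10 to 16 higher and 7 to 7 lower in IMQ + BZLF against control. Of the other pathway genes it gave 16 to 24 higher and 1 to 3 lower, 0 to 1 lower, and 15 to 21 higher and 1 to 4 lower. Between the treated groups the direction of small differences turned for Fzd10 (-0.081 to 0.15, negative without IMQ + BZLF replicate 1 or IMQ + NS replicate 3), Fzd5 (-0.047 to 0.13, negative without IMQ + BZLF replicate 1) and Sfrp5 (-0.11 to 0.34, negative without IMQ + BZLF replicate 4).

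The labels do not say that the replicate numbers pair samples, and the deviations of same-numbered samples correlated at -0.15 to 0.26 over 12 pairs. They were above 0.1 in 6, all 3 pairs of number 3 and all 3 of number 4, against 6 of 36 differently numbered pairs. As the correlation was not above 0.1 in every same-numbered pair, the samples were not taken as paired, and not every sample correlated best with its own number. With the replicate number as a block, 19 members were called in IMQ + NS against control (without Wnt8a), 0 in IMQ + BZLF against IMQ + NS and 19 in IMQ + BZLF against control (without Notum). FPKM values give no reads behind a value, which limits what can be said of members below about 1 FPKM.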
